A study of Mus musculus with 11 samples.

Results

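The Wnt pathway was described here through 56 of the 27687 genes of a count table of mouse high-grade gliomas. Members were the protein-coding genes whose symbols name a Wnt ligand, a Frizzled, Lrp5, Lrp6, Ror1 or Ror2 receptor, or a secreted antagonist (Sfrp, Dkk, Wif1, Notum). Lgr4 to Lgr6, the cytoplasmic parts Apc, Axin1, Axin2, Ctnnb1, Nkd1 and Nkd2, and the nuclear factors Lef1, Tcf7, Tcf7l1 and Tcf7l2 completed the set. RNA of 9 tumours with prolonged Ezh2 knockdown and of 2 control tumours without it was sequenced. Every tumour grew in the brain of a NOD-SCID mouse, a host that lacks mature T and B cells. The injected glioma-initiating cells were neural stem cells of the subventricular zone from 7-day-old mice, which carried conditional p53, Ink4a/Arf, Krasv12 and LucR alleles recombined in culture by a lentiviral CMV-Cre. The same cells had received the hairpin construct FH1-tUTG-shEzh2, which doxycycline switches on, and were sorted for GFP, so that controls carried the construct too. The labels give 1 doxycycline protocol (2 mg/ml with 1% sucrose) for all tumours while the design text speaks of mice with and without the drug, so an effect of doxycycline and one of the hairpin cannot be told apart. Nothing in the labels says that the tumours came from separate cell preparations, and p-values then measure only the spread between these tumours, which may be technical.

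Wnt proteins are lipid-modified secreted ligands. In the canonical branch a Wnt binds a Frizzled receptor together with Lrp5 or Lrp6, which stops the Axin and Apc destruction complex from degrading beta-catenin (Ctnnb1), so that beta-catenin can act with Tcf/Lef factors at target genes such as Axin2, Nkd1, Notum, Lef1 and Lgr5. Ligands such as Wnt5a can act instead through Ror receptors without beta-catenin, and Sfrp, Dkk, Wif1 and Notum proteins block or inactivate ligands or receptors outside the cell. In the brain, Wnt7a and Wnt7b from neural progenitors and glia act on endothelial cells to form and keep the blood-brain barrier, and several Wnt genes and antagonists are known targets of Polycomb repression in stem cells.

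The difference of 5 members, Wnt2, Wnt2b, Wnt7b, Wnt9a and Sfrp2, held with either control left out. Promoter sequence is printed for 4 of them, those in the promoter table, and Wnt7b is named only. Wnt2, which was higher in the knockdown tumours, and Wnt2b, Wnt9a and Sfrp2, which were lower, are shown with the 250 bases before the transcript start, 5′ to 3′ on the gene's strand, from RefSeq on build GRCm38.p6. Capitals mark CG dinucleotides, the density of which is a known feature of Polycomb-bound promoters.
Wnt2 (chr6:18030446-18030695, minus strand): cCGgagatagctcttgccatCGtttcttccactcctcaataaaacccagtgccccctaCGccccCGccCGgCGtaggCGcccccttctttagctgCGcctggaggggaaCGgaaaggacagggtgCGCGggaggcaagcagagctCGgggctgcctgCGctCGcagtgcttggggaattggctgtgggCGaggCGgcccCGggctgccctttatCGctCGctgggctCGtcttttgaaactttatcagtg
Wnt2b (chr3:104961710-104961959, minus strand): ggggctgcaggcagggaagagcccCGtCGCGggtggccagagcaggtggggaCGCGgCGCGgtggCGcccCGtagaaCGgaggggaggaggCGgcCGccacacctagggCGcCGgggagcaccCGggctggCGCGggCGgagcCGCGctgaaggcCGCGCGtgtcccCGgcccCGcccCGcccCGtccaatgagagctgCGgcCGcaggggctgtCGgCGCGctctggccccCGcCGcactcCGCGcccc
Wnt9a (chr11:59306680-59306929, plus strand): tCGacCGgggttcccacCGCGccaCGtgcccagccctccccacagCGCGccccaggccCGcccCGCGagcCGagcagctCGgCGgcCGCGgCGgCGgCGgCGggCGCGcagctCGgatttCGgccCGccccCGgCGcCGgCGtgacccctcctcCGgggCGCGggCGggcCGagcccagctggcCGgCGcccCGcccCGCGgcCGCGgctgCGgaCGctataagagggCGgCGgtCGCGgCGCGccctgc
Sfrp2 (chr3:83766071-83766320, plus strand): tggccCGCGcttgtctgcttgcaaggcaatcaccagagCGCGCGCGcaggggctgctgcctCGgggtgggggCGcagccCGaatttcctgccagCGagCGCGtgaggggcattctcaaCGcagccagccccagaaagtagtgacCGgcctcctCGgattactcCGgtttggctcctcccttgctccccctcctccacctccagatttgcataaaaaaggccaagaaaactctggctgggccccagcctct

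These windows held 20 CG dinucleotides in Wnt2, 36 in Wnt2b, 48 in Wnt9a and 16 in Sfrp2. Over the 38 members found in the promoter table the median was 21.5 in 250 bases (averaged over the starts of a gene), against 10 over its 17492 protein-coding genes. Members that were higher and members that were lower in the knockdown tumours had medians of 22 (7 genes) and 26 (8 genes), and those that did not pass the test 21 (17 genes). In the full 300-base windows the medians were 27 for higher members, 33.5 for lower members and 26 for those that did not pass. Whether CG content differs between these groups was not tested. The groups are small, and some called members, Wnt7b among them, had no window. The core letters of a Tcf/Lef site, TCAAAG or CTTTGA on either strand, stood in none of the 4 windows shown. They were found in 6 of the 38 members (15.8%, 95% Clopper-Pearson interval 6.02 to 31.3) and in 14.7% of the protein-coding genes. The 6 were Lef1, Wnt5b, Dkk1, Ror1, Fzd1 and Wnt11.

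Libraries held 11209233 to 18638382 counts over genes. Ezh2, the gene that the hairpin targets, had 7.27 to 30.4 CPM in the knockdown tumours (CPM, counts scaled to library size by the TMM method; median 14.6), against 45.3 and 52.7 CPM in the controls. All 9 knockdown tumours lay below both controls (edgeR, log2 fold change -1.59 ± 0.44 SE, adjusted p = 0.023; exact two-sided permutation p = 0.018, the smallest that 55 splits allow). The Ezh2 call did not hold with control 1 left out (-1.70, adjusted p = 0.11), nor with control 2 left out (-1.48, adjusted p = 0.14). These are bulk tumours, in which fewer cells of a type and less RNA per cell cannot be told apart.

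Among the members, Wnt ligands and secreted antagonists that changed were mostly lower in the knockdown tumours. The changed Frizzled and Ror receptors (3 of 13 tested) and nuclear factors (2 of 4) were all higher. For the receptors this share, 23.1%, was near the 23.3% called over all tested genes. The calls of Ror1, Ror2, Tcf7 and Tcf7l1 needed both controls, and that of Fzd2 needed control 2. The ligand Wnt7b, the dominant Wnt transcript of the controls, fell 11-fold, and Sfrp2, a secreted Wnt antagonist, fell 8.81-fold. The ligand Wnt2, the receptors Ror1 and Ror2 and the factors Tcf7 and Tcf7l1 rose between 3.08-fold and 15.5-fold. Of the 56 members 48 passed the filter on low counts, and by the quasi-likelihood F-test of edgeR (p adjusted by Benjamini-Hochberg over 16241 genes, threshold 0.05) 8 were higher and 11 lower. These 19 are 39.6% of the members tested, where 23.3% of all tested genes were called, 10.3% as higher and 13.0% as lower. The median log2 fold change, knockdown over control, was -0.09 over the members and 0.07 over all tested genes, and the median size regardless of sign was 1.07 over the members and 0.43 over all tested genes. In 22 of the 48 members (45.8%) the groups did not overlap, which held for 27.2% of all tested genes. By role, 2 of 14 tested ligands rose and 6 fell, 3 of 13 receptors rose, 3 of 8 secreted antagonists fell, 1 of 3 Lgr receptors fell, 1 of 6 cytoplasmic parts rose and 1 fell, and 2 of 4 nuclear factors rose. The 8 members not tested were Wnt1, Wnt3a, Wnt8a, Wnt8b, Wnt16, Fzd10, Dkk4 and Sfrp5. Wnt3a, a standard canonical ligand, had no count in any tumour, and Sfrp5 had up to 63 counts in knockdown 9 but 4 and 5 in the controls.

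**Figure D1:**
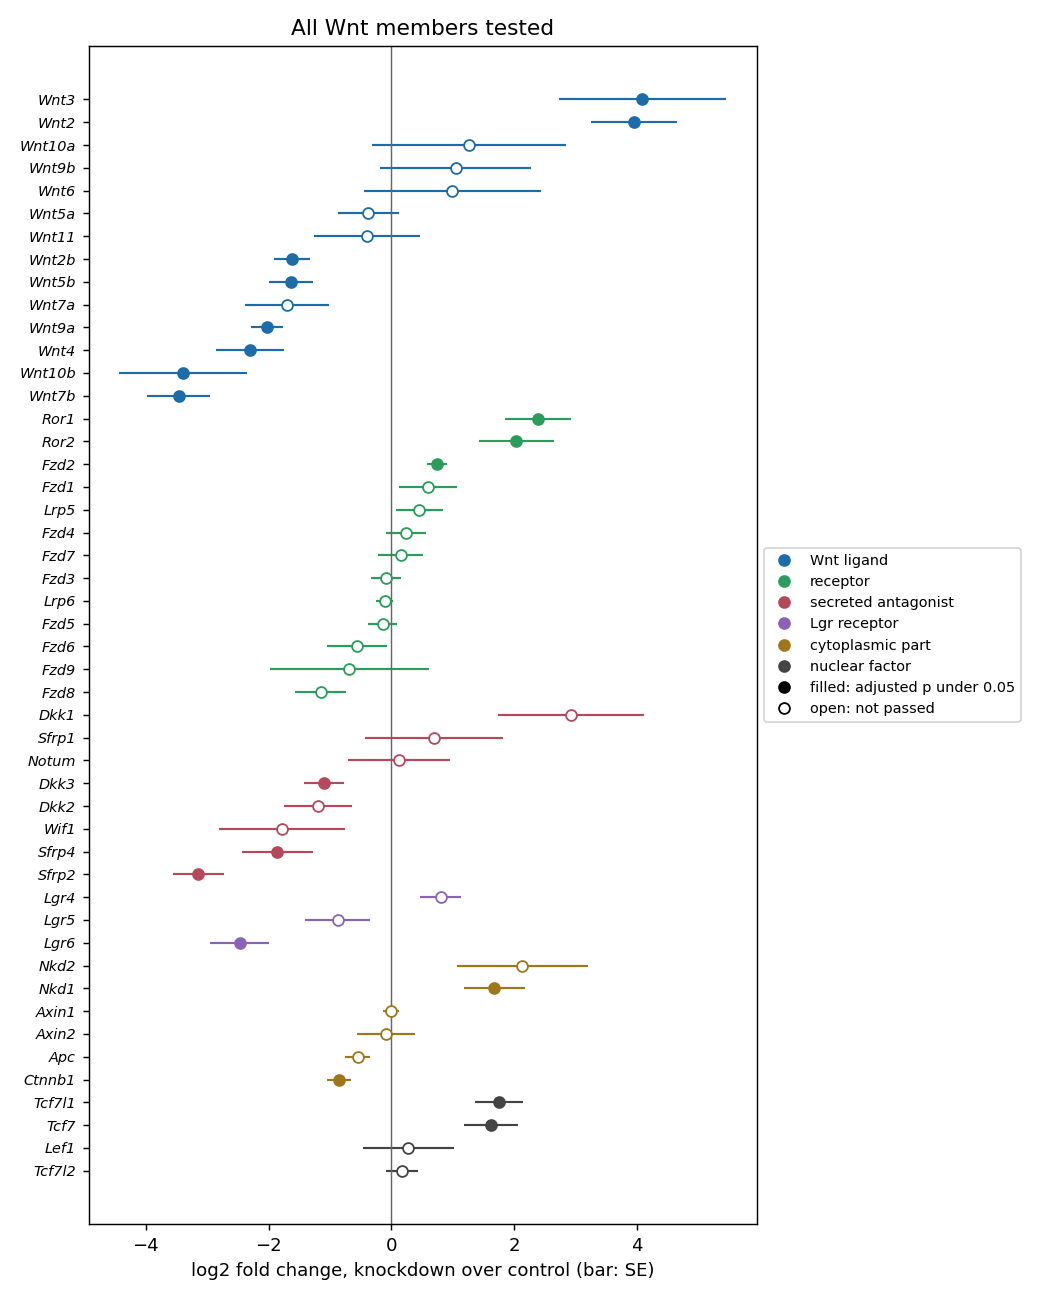
Log2 fold change, knockdown over control (n = 9 and 2 tumours), of the 48 tested members, ordered by role and then by size. Points are edgeR estimates, bars are their SE, and filled points have an adjusted p under 0.05. Ligands spread from -3.46 (Wnt7b) to 4.08 (Wnt3), while receptors run from -1.15 (Fzd8) to 2.38 (Ror1).

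Among the ligands, the 6 that fell were Wnt7b, Wnt10b, Wnt4, Wnt9a, Wnt5b and Wnt2b. Wnt7b (ENSMUSG00000022382, mm9 chromosome 15, 85365869 to 85412251) had 12.3 to 94.0 CPM in the knockdown tumours (median 43.6), against 768 and 291 CPM in the controls. The highest knockdown tumour, number 3, was at less than the level of either control, and knockdown 4 was lowest. The log2 fold change of Wnt7b was -3.46 ± 0.51 (SE; edgeR, adjusted p = 9.0e-04), and both fits with a single control passed, at -2.60 without control 1 (adjusted p = 0.031) and at -4.0 without control 2 (0.0022). The lincRNA AU022754, whose model overlaps Wnt7b, also fell, with 0.0784 to 1.15 CPM in the knockdown tumours and 7.46 and 3.26 CPM in the controls (edgeR, -3.11, adjusted p = 0.0035). Whether strand was used in counting is not given in the sources used here, so reads of the overlapping pair cannot be assigned with certainty, although the lincRNA was far scarcer than Wnt7b. Models of other genes overlap 7 of the 19 members that passed, Wnt7b among them.

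Wnt9a, which guides joint and blood stem cell development, had the smallest SE of the tested ligands. It had 1.16 to 2.26 CPM in the knockdown tumours (median 1.51), against 7.39 and 5.76 CPM in the controls. The SD of 0.368 CPM over the 9 knockdown tumours was small beside that gap, and the log2 fold change was -2.02 ± 0.26 (edgeR, adjusted p = 4.8e-04). Wnt2b, a canonical ligand of eye and gut, had 3.02 to 7.66 CPM in the knockdown tumours (median 4.39), against 16.0 and 14.1 CPM in the controls. Its groups were well apart as well (-1.62 ± 0.29, adjusted p = 0.0028). Without control 1 Wnt9a and Wnt2b still passed, at -1.83 and -1.53, and so they did without control 2, at -2.19 and -1.71.

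Wnt5b, a non-canonical ligand, had 3.41 to 9.54 CPM in the knockdown tumours (median 5.60), against 20.3 and 17.5 CPM in the controls. All 9 knockdown tumours were below both controls (-1.64 ± 0.36, edgeR, adjusted p = 0.0080), but without control 1 the call was lost at -1.53 (adjusted p = 0.086). Wnt4, known from kidney and gonad development, was scarce, with 0.0644 to 0.539 CPM in the knockdown tumours (median 0.363, 1 to 10 counts), against 1.38 and 1.5 CPM in the controls (18 and 24 counts). The groups did not overlap (-2.30 ± 0.55, edgeR, adjusted p = 0.013), and with control 1 or control 2 left out the adjusted p of Wnt4 was 0.082 and 0.089. Wnt10b, a canonical ligand of bone and hair follicle, is a case of 1 library. It had 0 to 2.12 CPM in the knockdown tumours (median 0.269), against 1.46 and 10.3 CPM in the controls. Knockdown 3 and 9 were above control 1, so the groups overlapped, and without control 2 the log2 fold change moved to -1.39 (adjusted p = 0.59), against -3.39 ± 1.04 with both (edgeR, adjusted p = 0.036) and -4.19 without control 1 (adjusted p = 0.057). It also lost its call with knockdown 1, 5, 6 or 8 left out.

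Both ligands that rose were near the counting floor in the controls. Wnt2 (ENSMUSG00000010797, mm9 chromosome 6, 17938940 to 17980585), a canonical ligand of lung and vascular development, had 1.59 to 9.40 CPM in the knockdown tumours (median 4.09, 23 to 120 counts), against 0.308 and 0.251 CPM in the controls, or 4 counts in each. Every knockdown tumour lay above both controls (log2 fold change 3.95 ± 0.70, edgeR, adjusted p = 0.0027). From the summed counts, 566 in the knockdown tumours and 8 in the controls, Wnt2 was 15.7-fold higher in the knockdown tumours (exact 95% counting interval 7.91 to 36.5). With control 1 left out Wnt2 still passed at 4.09 (adjusted p = 0.035), and with control 2 left out at 3.80 (adjusted p = 0.037). Wnt3, a canonical ligand of early axis formation, had 0.465 to 8.64 CPM in the knockdown tumours (median 1.30), against 0.154 and 0.125 CPM in the controls, or 2 counts in each. Knockdown 2 was highest and knockdown 9 lowest, and all 9 were above both controls (4.08 ± 1.36, edgeR, adjusted p = 0.049). The summed counts, 314 in the knockdown tumours and 4 in the controls, give a 17.4-fold higher level in knockdown, with a counting interval of 6.73 to 64.3. Such intervals leave out the spread between tumours, and Wnt3 ran from 7 to 105 counts over the knockdown tumours. The edgeR call of Wnt3 did not hold with control 1 left out (adjusted p = 0.23), with control 2 left out (0.22) and with any of knockdown 1, 4, 5, 7 and 8 left out.

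The other 6 tested ligands, Wnt5a, Wnt6, Wnt7a, Wnt9b, Wnt10a and Wnt11, had log2 fold changes between -1.70 (Wnt7a) and 1.26 (Wnt10a) and adjusted p from 0.090 to 0.77. Wnt5a, the ligand of Ror receptors, had 38.6 to 166 CPM in the knockdown tumours (median 56.0), against 140 and 69.9 CPM in the controls. Control 1 was exceeded by 1 knockdown tumour and control 2 lay within the knockdown range, so the groups overlapped. Divided by exon length (GENCODE vM21), Wnt7b was at 157 and 59.4 CPM per kb in the controls, above Wnt5a in both (17.9 and 8.94). In the knockdown tumours Wnt7b ran from 2.52 to 19.2 CPM per kb and Wnt5a from 4.94 to 21.3, and Wnt7b was above Wnt5a in 4 of the 9. The knockdown medians were 8.91 CPM per kb for Wnt7b and 7.16 for Wnt5a. The wide gap of the controls was thus absent in the knockdown tumours, where the order varied between tumours and the ranges overlapped.

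**Figure D2:**
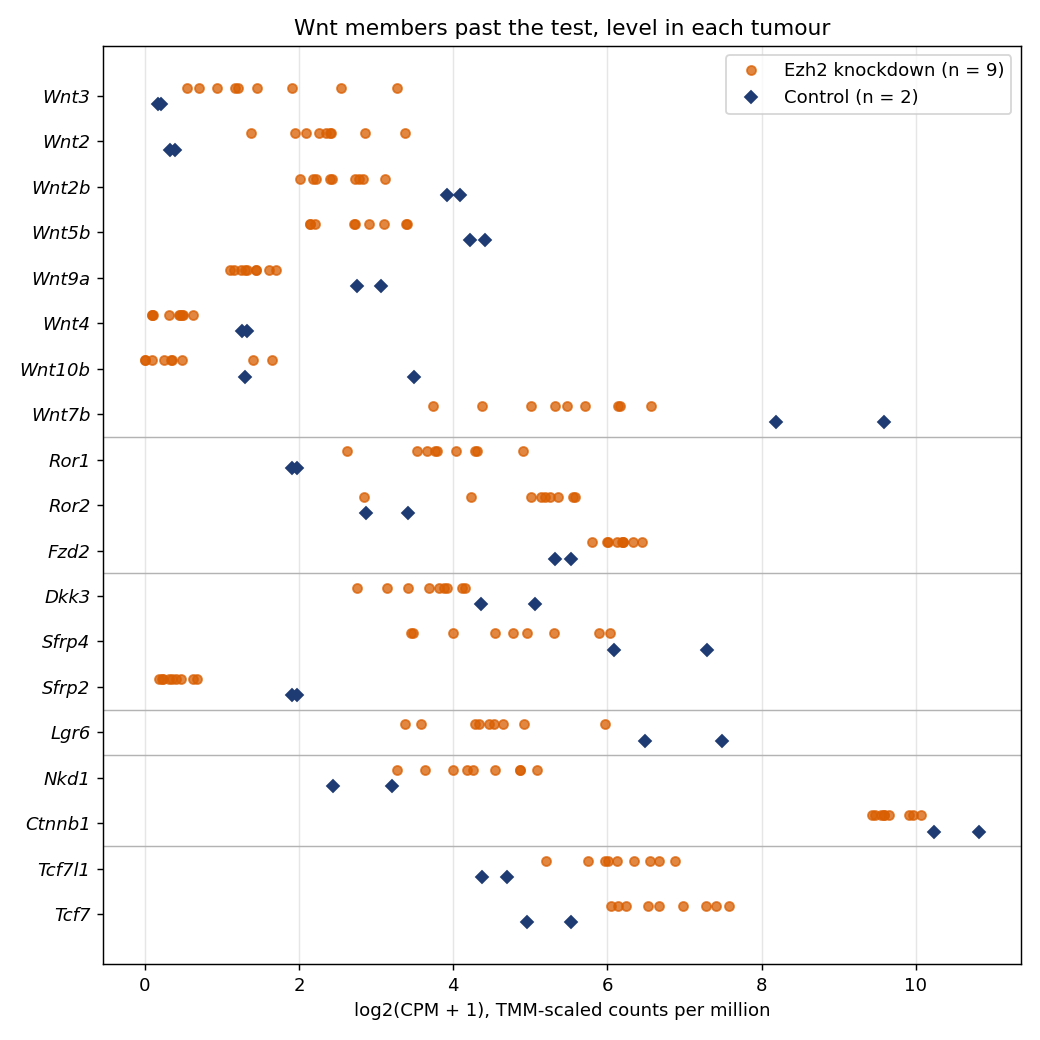
Level of the 19 members that passed the test in each tumour, as log2(CPM + 1), in blocks by role. Circles are the 9 knockdown tumours and diamonds the 2 controls. The groups are apart for 17 members, and they overlap for Wnt10b and Ror2.

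Of the receptors, Ror1, Ror2 and Fzd2 rose and none of the 13 tested fell. Ror1 and Ror2 are receptor tyrosine kinase-like proteins that bind Wnt5a. Ror1 had 5.17 to 28.8 CPM in the knockdown tumours (median 12.8), against 2.77 and 2.94 CPM in the controls. All 9 knockdown tumours were above both controls (log2 fold change 2.38 ± 0.54, edgeR, adjusted p = 0.0094), yet the adjusted p was 0.096 with control 1 left out and 0.073 with control 2 left out. Ror2 had 6.17 to 46.7 CPM in the knockdown tumours (median 35.3), against 9.69 and 6.33 CPM in the controls. In 8 knockdown tumours Ror2 was above both controls, and in knockdown 9 it was below both (2.03 ± 0.61, edgeR, adjusted p = 0.032). Without control 1 or control 2 the adjusted p of Ror2 was 0.14 and 0.21, and by limma-voom it was 0.16. Fzd2, a Frizzled that takes both canonical and Wnt5a signals, had 54.8 to 86.0 CPM in the knockdown tumours (median 72.2), against 45.3 and 39.0 CPM in the controls. Its rise was small and uniform (0.74 ± 0.16, edgeR, adjusted p = 0.0072), and it held with control 1 left out (adjusted p = 0.041) but not with control 2 left out (0.088).

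Fzd1, Fzd3 to Fzd9, Lrp5 and Lrp6 did not pass, with log2 fold changes between -1.15 (Fzd8, adjusted p = 0.061) and 0.59 (Fzd1, adjusted p = 0.39). Fzd8 had 3.79 to 13.3 CPM in the knockdown tumours (median 5.76), against 17.9 and 15.0 CPM in the controls, and its groups did not overlap. Per length Fzd1 was the most abundant Frizzled, with 66.5 to 264 CPM per kb in the knockdown tumours and 61.0 and 121 CPM per kb in the controls. It exceeded Fzd7, the next, in all 9 knockdown tumours and in both controls. The canonical co-receptors Lrp5 (0.46 ± 0.39) and Lrp6 (-0.11 ± 0.14) had adjusted p of 0.42 and 0.59 by edgeR.

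Of the secreted antagonists among the members, Sfrp2, Sfrp4 and Dkk3 fell and none rose. This direction depends on the rule by symbols. Of 5 other antagonists tested outside the members 2 rose, Frzb (3.58) and the scarce Cer1 (5.52), and none fell. Sfrp proteins carry a Frizzled-like domain that binds Wnt ligands. Sfrp2 (ENSMUSG00000027996, mm9 chromosome 3, 83570243 to 83578238) had 0.138 to 0.597 CPM in the knockdown tumours (median 0.274, 2 to 9 counts), against 2.77 and 2.94 CPM in the controls (36 and 47 counts). The knockdown tumours were all far below both controls and near the floor of 3 counts, and the log2 fold change was -3.14 ± 0.41 (edgeR, adjusted p = 5.1e-04). Sfrp2 was steady with control 1 left out (-3.18, adjusted p = 0.0064) and with control 2 left out (-3.10, adjusted p = 0.0063). Sfrp4 had 9.95 to 64.8 CPM in the knockdown tumours (median 26.4), against 66.8 and 156 CPM in the controls. Knockdown 8 came within a few percent of control 1, and the call (-1.86 ± 0.58, edgeR, adjusted p = 0.037) was lost with control 1 left out (-2.34, adjusted p = 0.072), with control 2 left out (-1.13, adjusted p = 0.39) and with knockdown 2, 5 or 6 left out. Dkk3, a divergent member of the Dickkopf family whose action on Wnt signals is debated, had 5.73 to 16.8 CPM in the knockdown tumours (median 13.1), against 32.4 and 19.6 CPM in the controls. All 9 were below both controls (-1.10 ± 0.33, edgeR, adjusted p = 0.031), and the adjusted p of Dkk3 was 0.38 without control 1 and 0.051 without control 2.

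Notum, which removes the lipid from Wnt proteins and is itself a Wnt target, had 3.45 to 45.6 CPM in the knockdown tumours (median 17.2), against 24.8 and 12.8 CPM in the controls. The knockdown range enclosed both controls (0.13 ± 0.83, edgeR, adjusted p = 0.93). Dkk1, the classical blocker of Lrp5 and Lrp6, had 6.72 to 81.1 CPM in the knockdown tumours (median 12.5), against 5.69 and 0.564 CPM in the controls. All 9 knockdown tumours were above both controls, but the spread between the controls was wide and Dkk1 did not pass (2.92 ± 1.19, edgeR, adjusted p = 0.095). Dkk2 (-1.20, adjusted p = 0.14) also had groups that did not overlap, and Wif1 (-1.78, adjusted p = 0.23) and Sfrp1 (0.69, adjusted p = 0.69) overlapped. Sfrp1 was at 66.7 and 64.8 CPM in knockdown 7 and 9 and at 4.80 to 13.1 CPM in the other 7 knockdown tumours, against 15.3 and 9.71 CPM in the controls.

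The Lgr receptors bind R-spondins, which raise the sensitivity of a cell to Wnt. Lgr6 had 9.39 to 61.7 CPM in the knockdown tumours (median 21.2), against 178 and 89.0 CPM in the controls. All knockdown tumours were below both controls (-2.47 ± 0.47, edgeR, adjusted p = 0.0040). Lgr6 passed without control 2 (-2.89, adjusted p = 0.011) and not without control 1 (-1.89, adjusted p = 0.096). Lgr5, a stem cell marker and Wnt target, had 0.427 to 3.06 CPM in the knockdown tumours (median 1.91), against 3.08 and 3.82 CPM in the controls. Its highest knockdown tumour nearly reached control 1, and Lgr5 did not pass (-0.87 ± 0.53, edgeR, adjusted p = 0.25). Lgr4 had 17.5 to 37.1 CPM in the knockdown tumours and 10.9 and 16.2 CPM in the controls, without overlap (0.80 ± 0.33, adjusted p = 0.10).

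In the cytoplasm, Ctnnb1 fell and Nkd1 rose. Ctnnb1, which encodes beta-catenin, had 688 to 1072 CPM in the knockdown tumours (median 770.1), against 1802 and 1208 CPM in the controls. Every knockdown tumour was below both controls (-0.85 ± 0.19, edgeR, adjusted p = 0.0099). Without control 1 the log2 fold change of Ctnnb1 was -0.53 (adjusted p = 0.22), and without control 2 it was -1.11 (adjusted p = 0.014). The counts are of mRNA, whereas the pathway acts on the stability of the protein. Nkd1, a feedback inhibitor that binds Dishevelled, had 8.63 to 32.9 CPM in the knockdown tumours (median 18.0), against 8.23 and 4.45 CPM in the controls. Knockdown 9 was close to control 1 and the other 8 were higher (1.67 ± 0.50, edgeR, adjusted p = 0.031), while without control 1 or control 2 the adjusted p of Nkd1 was 0.092 and 0.23. Axin2, a scaffold of the destruction complex and the usual readout of canonical signalling, had 8.36 to 27.8 CPM in the knockdown tumours (median 13.3), against 23.6 and 10.3 CPM in the controls. The groups overlapped (-0.09 ± 0.48, edgeR, adjusted p = 0.91), and the sign turned without control 1 (0.62, adjusted p = 0.62). Axin1 (-0.01 ± 0.13), Apc (-0.55 ± 0.21, adjusted p = 0.073) and Nkd2 (2.13 ± 1.06, adjusted p = 0.17) did not pass.

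Of the nuclear factors, Tcf7 and Tcf7l1 rose. Tcf7 (ENSMUSG00000000782, mm9 chromosome 11, 52065873 to 52096681), which encodes TCF1, had 65.1 to 189 CPM in the knockdown tumours (median 101), against 44.9 and 29.9 CPM in the controls. All 9 knockdown tumours were above both controls (1.62 ± 0.44, edgeR, adjusted p = 0.021). Tcf7l1, which encodes TCF3, mainly a repressor of Wnt targets, had 35.8 to 116 CPM in the knockdown tumours (median 69.0), against 24.8 and 19.7 CPM in the controls. Its groups were apart too (1.75 ± 0.39, edgeR, adjusted p = 0.0087). Both calls were lost without control 1 (Tcf7 1.94, adjusted p = 0.092, and Tcf7l1 1.92, adjusted p = 0.063) and without control 2 (Tcf7 1.36, adjusted p = 0.17, and Tcf7l1 1.58, adjusted p = 0.088). Lef1, a factor and Wnt target, had 10.2 to 113 CPM in the knockdown tumours (median 28.5), against 37.6 and 19.9 CPM in the controls. Knockdown 3 stood far above all other tumours, and Lef1 did not pass (0.27 ± 0.74, edgeR, adjusted p = 0.82). Tcf7l2 had 34.2 to 70.8 CPM in the knockdown tumours (median 39.2), against 37.5 and 43.3 CPM in the controls, and overlapped (0.17 ± 0.27, adjusted p = 0.67). Per length, Tcf7 was the highest of the family in 8 of the 9 knockdown tumours, all but knockdown 9. Over all 9 it ran from 24.8 (knockdown 9) to 72.2 CPM per kb. In both controls it was above Tcf7l1, at 17.1 and 11.4 CPM per kb. Models of other genes overlap Tcf7 (A630014C17Rik and Gm16953) and Tcf7l1 (Gm15401 and Gm15402), all under 6 CPM in every tumour.

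**Figure D3:**
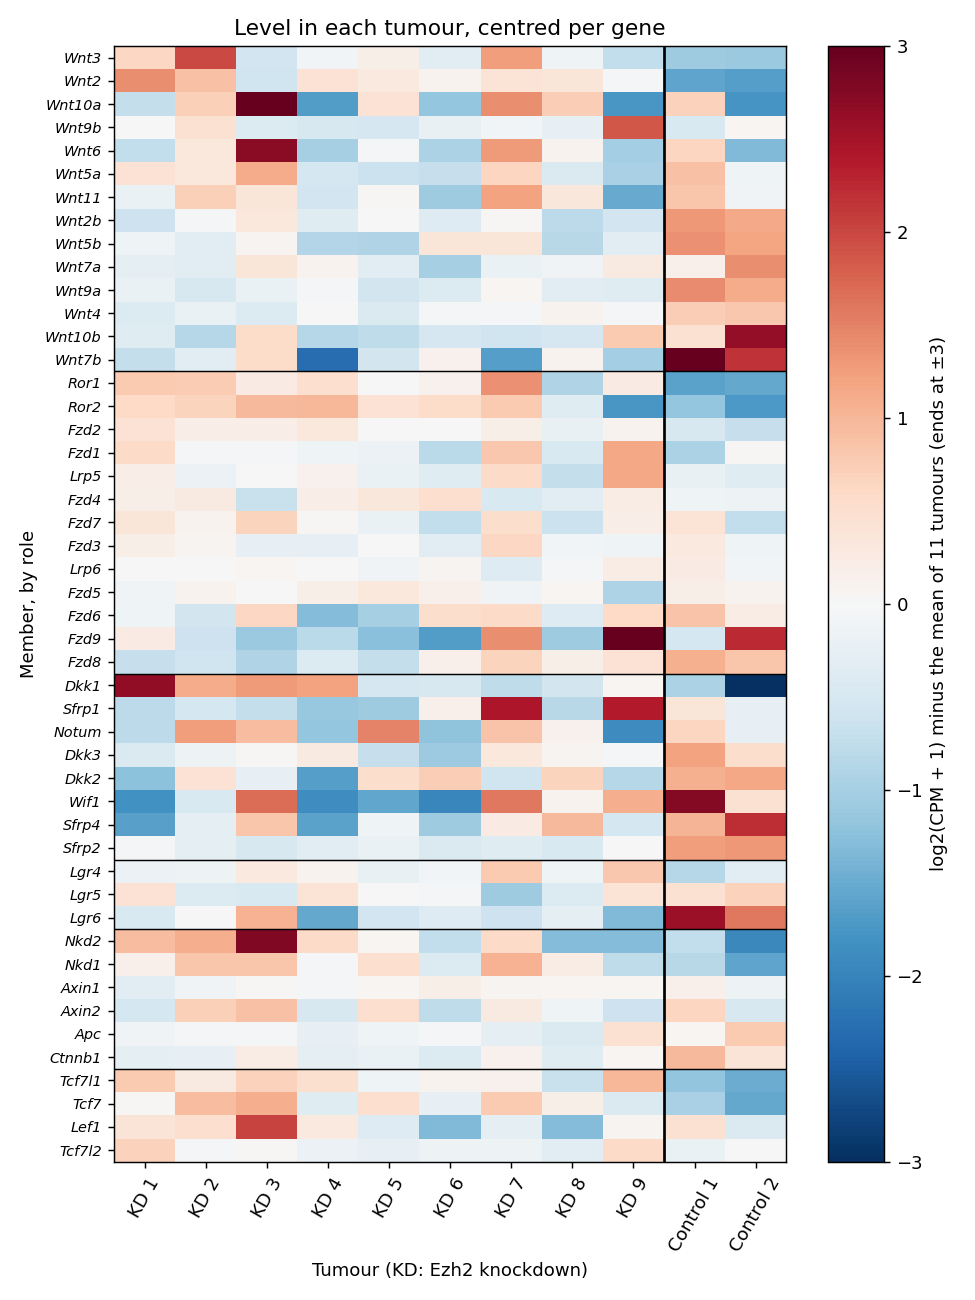
Level of each tested member in each tumour as log2(CPM + 1) minus the mean of the 11 tumours, in blocks by role, with colours ending at ±3. Columns are the 9 knockdown tumours and then the 2 controls. The controls stand out for Wnt7b and Lgr6 (high) and for Wnt2 and Ror1 (low), and single knockdown tumours stand out for Nkd2 (knockdown 3) and Fzd9 (knockdown 9).

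With a single control left, 5 of the 19 calls held whichever control it was: Wnt2, Wnt2b, Wnt7b, Wnt9a and Sfrp2. In these fits the lone control is assumed to vary like the knockdown tumours. Without control 1, 6 of the 19 were still called, and 8 without control 2, where all tested genes gave 7.61% and 10.4% called. The sign of the 19 members was the same in every alternative fit that gave a value. Wnt2 passed in all 19 alternatives. Of the 19 members, 19 were also called by DESeq2 (26.2% of all genes it tested), 19 with RLE size factors (23.6%), 18 without a filter on low counts (12.5%) and 15 by limma-voom (20.8%). Against a 1.5-fold change 10 passed (7.14%), with the replicate block 6 (4.22%), without knockdown 7 and 9 19 (31.3%), and in the 7 libraries with Xist reads 17 (29.3%).

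**Figure D4:**
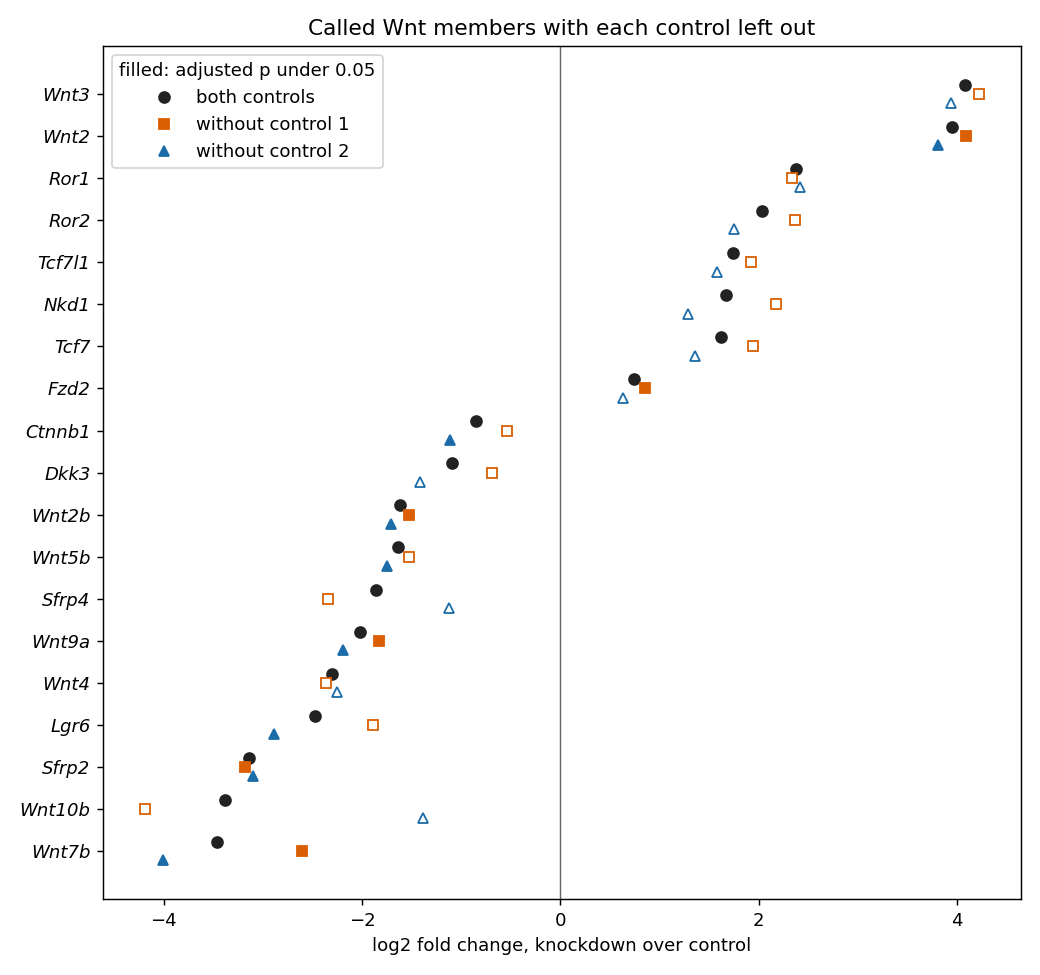
Log2 fold change, knockdown over control, of the 19 members that passed the test, with both controls, without control 1 and without control 2. Filled symbols have an adjusted p under 0.05. Wnt10b is at -3.39 with both controls and at -1.39 without control 2, whereas Sfrp2 stays between -3.18 and -3.10.

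Outside the members, 79 further genes of the pathway were listed from general knowledge. Of the 70 that were tested 9 were higher and 10 lower in the knockdown tumours (27.1%, where all tested genes gave 23.3%), and the median log2 fold change was 0.20. Reck, a membrane protein that presents Wnt7a and Wnt7b to the endothelial receptor complex, had 25.0 to 42.9 CPM in the knockdown tumours (median 35.1), against 6.54 and 7.52 CPM in the controls. All knockdown tumours were several times above both controls (2.23 ± 0.25, edgeR, adjusted p = 2.4e-04). Prickle1, of planar cell polarity (2.99 ± 0.56, adjusted p = 0.0035), Frzb, a secreted antagonist related to the Sfrp genes (3.58 ± 0.71, adjusted p = 0.0047), Dact3 (1.02 ± 0.21), Pygo1, a beta-catenin coactivator (1.12 ± 0.23), and Ptk7, a Wnt co-receptor (0.78 ± 0.17), rose as well. Frzb had 9.09 to 42.0 CPM in the knockdown tumours (median 33.4), against 3.46 and 1.38 CPM in the controls, a direction opposite to that of Sfrp2 and Sfrp4. Celsr2, an atypical cadherin of planar cell polarity, fell the most clearly, with 4.45 to 10.7 CPM in the knockdown tumours (median 7.63), against 74.9 and 55.1 CPM in the controls (-3.13 ± 0.23, edgeR, adjusted p = 2.7e-05). Dvl1, a Dishevelled (-0.73 ± 0.13), Vangl1, also of planar cell polarity (-0.72 ± 0.14), and Znrf3, a ligase that removes Frizzleds (-0.77 ± 0.17), fell too. Of 13 tested genes outside the rule that are often listed as Wnt targets, none passed as higher and 5 fell (38.5%). Over all tested genes 10.3% were called higher and 13.0% lower. The 5 were Ccnd2 (-1.89), Cd44 (-1.22), Fgf18 (-2.32), Id2 (-1.04) and Ccnd1 (-0.98). Among those that did not pass, Sp5, Gbx2 and Sox9 had log2 fold changes of 2.55, 1.27 and 0.47, and the median over the 13 was -0.17. Of the members, Nkd1 (1.67) and Tcf7 (1.62), placed with the feedback targets below, did rise, while Axin2, Notum, Lef1 and Lgr5 did not pass. The groups of Fgf18 overlapped, with 0.157 to 1.89 CPM in the knockdown tumours (median 0.759), against 8.62 and 0.814 CPM in the controls, and with control 1 left out its fall vanished (log2 fold change 0.20, edgeR, adjusted p = 0.92). Reck, Prickle1, Celsr2, Ccnd2 and Cd44 passed with either control left out. Frzb (adjusted p = 0.059), Dact3 (0.089) and Dvl1 (0.053) did not pass without control 2, nor Vangl1 (0.14), Znrf3 (0.14) and Id2 (0.15) without control 1, nor Pygo1, Ptk7 and Ccnd1 in either case. Without control 1 the list gave 5 higher and 4 lower, and without control 2 it gave 2 and 8. Cer1, 1 of the 9 higher, had no count in either control and at most 0.727 CPM in a knockdown tumour.

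Some markers of other cells also differed between the groups. Whether they varied with the Wnt genes was not tested, nor was their part in the results. For fibroblasts and pericytes, neurons, and choroid plexus and ependyma, the share called was near the 23.3% of all tested genes. It was higher for the other marker lists. Of 8 endothelial markers 3 rose (Cldn5, Emcn and Tie1, between 1.15 and 1.74 on the log2 scale) and 1 fell (Flt1, -2.41). The summed endothelial level was 133 to 334 CPM in the knockdown tumours, against 413 and 232 CPM in the controls, beside the lower Wnt7b and the higher Reck. Flt1 made up 313 and 125 CPM of the control sums, and the other 7 markers, all with positive log2 fold changes, summed to 102 to 291 CPM in the knockdown tumours, against 101 and 108 CPM in the controls (8 of the 9 knockdown tumours above both). Of 8 markers of neural stem and glial tumour cells, all of which passed the filter on low counts, 4 fell (Nes, Sox2, Olig2 and Vim) and 1 rose (Pdgfra). Gfap (2.03), Sox9 (0.47) and Fabp7 (-1.28) did not pass. The sums were 2772 to 4098 CPM in the knockdown tumours, against 7512 and 6414 CPM in the controls. Most of them came from Vim, with 1712 to 3368 CPM in the knockdown tumours and 4950 and 5136 CPM in the controls. Fibroblast and pericyte markers, beside Wnt2, Ror1, Ror2 and Sfrp4, gave 1 higher (Pdgfrb) and 1 lower (Col1a2) of 8. Their sums were 902 to 3439 CPM in the knockdown tumours, against 3209 and 3057 CPM in the controls. Most of the control sums came from Col1a1 (1622 and 1307 CPM) and Col1a2 (1169 and 1138 CPM). The log2 fold changes of the 8 ran from -4.18 (Col1a2) to 2.33 (Dcn, which did not pass), with a median of 0.36. Of 8 macrophage and microglia markers 7 fell, with sums of 310.0 to 655 CPM in the knockdown tumours, against 768 and 1606 CPM in the controls. Of 5 oligodendrocyte markers 3 rose, with sums of 157 to 397 CPM in the knockdown tumours, against 48.8 and 20.2 CPM in the controls. Of 7 tested neuron markers 2 rose, with sums of 37.5 to 196 CPM in the knockdown tumours, against 55.6 and 49.9 CPM in the controls. Of 4 tested choroid plexus and ependyma markers 1, Folr1, rose, with sums of 1.82 to 17.3 CPM in the knockdown tumours, against 1.92 and 11.4 CPM in the controls. Tcf7 and Lef1 are also T cell genes. The T cell markers Cd3d, Cd3e, Cd3g and Cd8a were at 0 to 0.916 CPM in the knockdown tumours and at 0 to 0.251 CPM in the controls, while the whole T and NK list summed to 5.57 to 11.8 CPM in the knockdown tumours, against 13.5 and 37.2 CPM in the controls (Lck higher, Cd4, Trbc2 and Klrb1c lower).

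Within the 9 knockdown tumours, 5 of 12 feedback targets followed Axin2 by Pearson's r and 6 by Spearman's rho, which added Sp5. This family was chosen after the values were seen. The share of all tested genes that follow Axin2 as closely was not computed, so these counts have no background beside them. Axin2 was highest in knockdown 3, at 27.8 CPM, and in knockdown 2, at 25.0 CPM, and lowest in knockdown 6, at 8.36 CPM. Tcf7 followed it with Pearson's r = 0.95 (exact permutation over pairings, two-sided, p adjusted over the 12 = 0.0056) and Spearman's rho = 0.90 (adjusted p = 0.012). Notum gave r = 0.93 (exact permutation, adjusted p = 0.010) and rho = 0.90 (adjusted p = 0.012), and Nkd1 gave r = 0.86 (adjusted p = 0.015) and rho = 0.87 (adjusted p = 0.018). Tnfrsf19 and Bambi gave r = 0.74 each (exact permutation, adjusted p = 0.048). Without knockdown 2 and 3, the tumours farthest from the median of Axin2, Notum gave r = 0.96 (exact permutation, adjusted p = 0.021, 7 tumours), while its rho of 0.93 no longer passed (adjusted p = 0.074). The values of Tcf7 and Nkd1 were then r = 0.89 and 0.82 (exact permutation, adjusted p = 0.060 and 0.084), so that for them the relation no longer passed, and neither did it for Tnfrsf19 (adjusted p = 0.14) and Bambi (0.23). Lef1 dropped to r = -0.06 without these tumours, from 0.52 with all 9, and Lgr5 gave r = -0.64 (exact permutation, adjusted p = 0.087). The 9 knockdown tumours divide into 5 with Xist reads and 4 without, too few in either for a value within them. Both controls had Xist reads, so that Xist status was not balanced between the groups. At a given Axin2 level Tcf7 and Nkd1 were lower in both controls than in the knockdown tumours. Notum was at 28.8 to 45.6 CPM in the 4 knockdown tumours with the most Axin2, against 24.8 CPM in control 1, and at 3.45 to 8.54 CPM in the 4 knockdown tumours with the least Axin2, against 12.8 CPM in control 2.

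**Figure D5:**
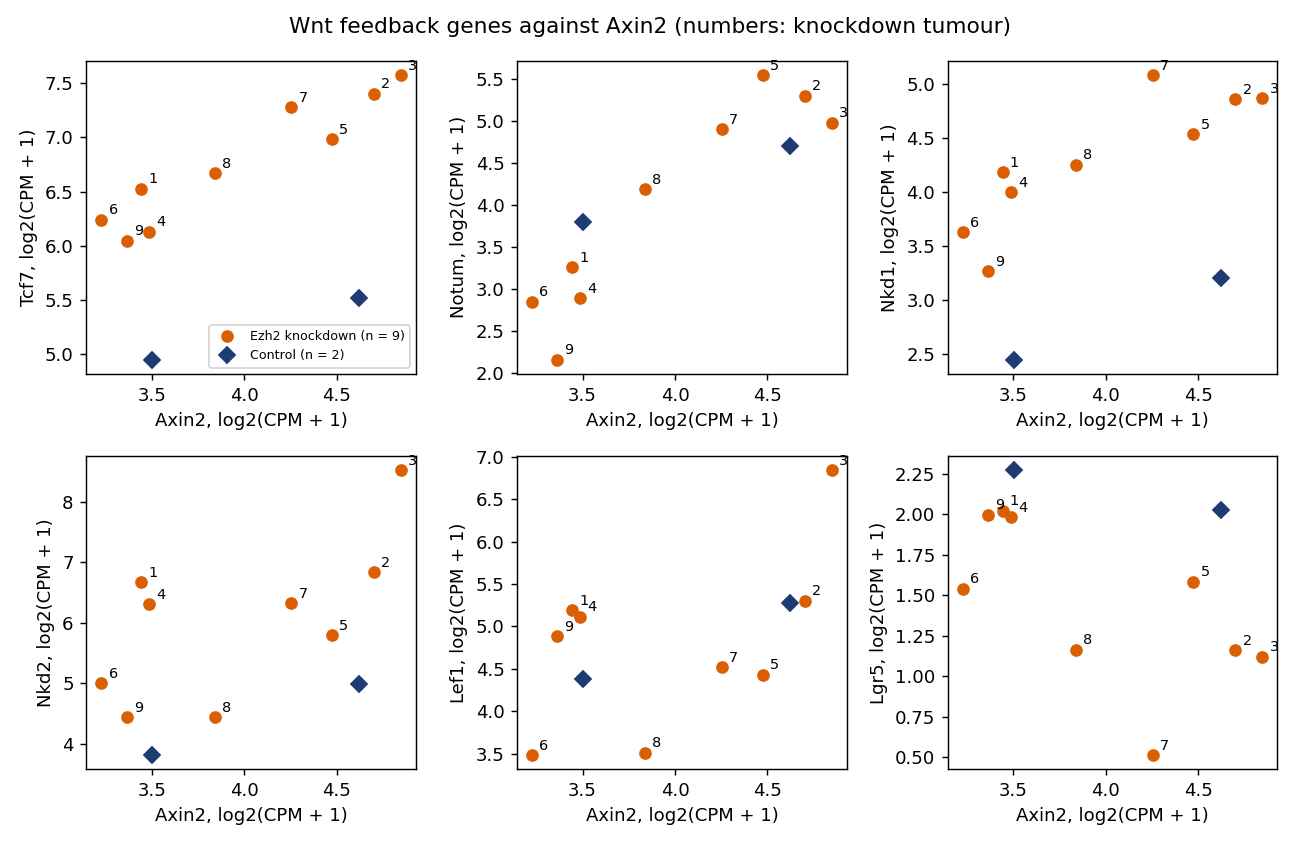
Level of 6 feedback targets against Axin2, both as log2(CPM + 1). Numbered circles are the 9 knockdown tumours and diamonds the 2 controls. Tcf7, Notum and Nkd1 rise with Axin2 over the knockdown tumours (r = 0.95, 0.93 and 0.86), and the controls lie below them for Tcf7 and Nkd1.

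No called member followed the remaining Ezh2 level among the 9 knockdown tumours after adjustment over the 19 members (smallest adjusted p = 0.15 by Pearson and 0.48 by Spearman, exact permutation). At an unadjusted p under 0.05 there were 2, Tcf7l1 (r = 0.80, rho = 0.75) and Wnt10b (r = 0.79, rho = 0.56). The sign for Tcf7l1 is opposite to the group difference, in which Tcf7l1 was higher and Ezh2 lower in the knockdown tumours. Without knockdown 3 and 9, which had the most Ezh2, r was 0.68 for Tcf7l1 and -0.03 for Wnt10b. In these 7 tumours Wnt4 (r = -0.89) and Sfrp2 (r = 0.88) had the strongest relations to Ezh2. Their adjusted p was 0.090 each (exact permutation), against r of -0.56 and 0.46 over all 9. Both relations rest on few reads, since over the 9 knockdown tumours Wnt4 had 1 to 10 counts and Sfrp2 2 to 9.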

How the data were processed

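Per the labels' protocols, TRIzol RNA was made into Illumina TruSeq libraries and run on a HiSeq2000. The deposited table holds the authors' whole-number counts per Ensembl gene, with symbols and coordinates on mm9. Per the submitters' processing notes TopHat 1.4.0, HTSeq and mm9 were used, with settings and strand use not given in the sources used here. Groups come from sample titles. In R 4.3.3 with edgeR 4.0.16, filterByExpr kept 16241 of 27687 genes (99.9% of counts), TMM scaled the libraries, and quasi-likelihood F-tests without covariates compared all 11 tumours, with Benjamini-Hochberg adjustment over all tested genes. The SE is the log2 fold change over the square root of F. The fit was tested on simulated data. Replicates correlated at 0.926 to 0.984 (log2 CPM) and none was a copy of another. Intervals cover counting error only. Lengths are exon unions of GENCODE vM21, and promoters are RefSeq windows, both on GRCm38. Members, lists and roles were chosen with earlier results of these data known. Named are all members that passed, a fixed set of targets whatever their p, abundant others of a role, and up to 6 further pathway genes per direction by p. Alternatives were RLE factors, no filter, a test against 1.5-fold, DESeq2 1.42.0, limma-voom 3.58.1, a replicate block, each library or knockdown 7 and 9 left out, and, chosen after seeing the data, the 7 libraries with at least 100 Xist counts.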

Additional observations from a re-analysis of the deposited data

Results flagged for a closer look

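In 12 of 61 genes examined (members tested, with pathway genes named above and Ezh2) 1 knockdown tumour stood apart from the other 8 by Dixon's criterion on CPM. Chance flags about 1 in 20 groups of normal values, a rate that need not hold for right-skewed CPM, and 11 of the 12 were on the high side. On log2(CPM + 1), a scale tried after seeing the data, there were 5, of which Wnt9b, Fzd5 and Apc in knockdown 9 were shared, with Ror2 low in knockdown 9 and Cd44 low in knockdown 4 added. Knockdown 3 was high for 5 genes, at 37.8 CPM for Wnt10a, 18.4 CPM for Wnt6, 61.7 CPM for Lgr6, 364 CPM for Nkd2 and 113 CPM for Lef1. Knockdown 9 was high for 3, at 5.18 CPM for Wnt9b, 61.8 CPM for Fzd9 and 194 CPM for Apc, and low for Fzd5, at 21.0 CPM. Knockdown 7 had 30.4 CPM of Fzd3, knockdown 1 had 81.1 CPM of Dkk1, and knockdown 4 had 122 CPM of Dvl1. Without knockdown 3 the log2 fold change of Lef1 turned to -0.21 (edgeR, adjusted p = 0.78), and Lgr6 kept its call.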

How the results depend on the processing

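All tested genes gave 3790 calls. The test against 1.5-fold gave 1159, without control 1 it was 1290 and without control 2 1750, and over all single libraries left out the range was 1290 to 4269. Members higher (8) and lower (11) became 3 and 7 against 1.5-fold. Leaving out single libraries gave 1 to 8 higher and 5 to 13 lower members, and limma-voom gave 4 higher. Of the other pathway genes 9 rose and 10 fell, with 3 and 3 against 1.5-fold, and 2 to 10 and 4 to 11 over libraries left out. Ezh2 was -1.59 against 1.5-fold (adjusted p = 0.091), and -1.76 to -1.48 over libraries left out. RLE factors and DESeq2 kept all 19 called members, no filter 18, and the Xist libraries 17. Signs turned in members that did not pass: Axin2 (-0.57 to 0.62 over libraries left out, 0.10 in the Xist libraries), Lef1 (-0.011 by limma-voom, -0.21 to 0.80 over libraries left out), Notum (-0.22 by limma-voom, -0.28 to 0.68 over libraries left out) and Tcf7l2 (-0.042 in the Xist libraries).

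The groups share replicate numbers 1 and 2 only, and same-numbered tumours did not deviate together (r = -0.14 and 0.02). The fit with the replicate block, with 1 residual degree of freedom, gave 686 genes, 6 of the 19 called members (Ror1, Ror2, Sfrp4, Tcf7l1, Wnt2 and Wnt3), 1 lower member, 3 and 2 other pathway genes, Ezh2 at -1.55 (adjusted p = 0.057) and Axin2 at 0.015.

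The cause of these changes was not tested. With 2 controls, spread among controls is poorly known, and members under about 10 counts (Wnt4, Sfrp2, Wnt2, Wnt3 on their low side) have imprecise folds.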
